A study of Danio rerio with 8 samples.

Results

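The Bmp and Tgf-beta signaling genes were examined in sorted hindbrain neurons of *phox2a* null zebrafish larvae and of their siblings. Members were the rows of the deposited count table whose symbols name a Bmp, Gdf, Tgf-beta, activin or inhibin ligand, a receptor for these ligands, a Smad, or the antagonists noggin, chordin and follistatin. The rule used no measured value and found 70 of 28802 genes. It also took in the secreted proteinases *bmp1a* and *bmp1b*, the kinase gene *bmp2k* and *tgfbrap1*, whose symbols share these names. Of the 70 genes, 65 had at least 1 read in the 6 libraries compared, and 39 had enough reads to enter the test over 14824 genes.

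Ligands of this family are secreted dimers that bring type I and type II serine/threonine kinase receptors together at the cell surface. The type II receptor activates the type I receptor, which phosphorylates a receptor Smad. In most cells Bmps signal through Smad1, Smad5 and Smad9, and Tgf-betas and activins through Smad2 and Smad3. The receptor Smads then enter the nucleus with Smad4. In the developing hindbrain, Bmps from the roof plate pattern dorsal progenitors, and later signals of the family from target tissue act back on neurons.

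Null larvae were *phox2a*-/-, and siblings were *phox2a*+/+ or *phox2a*+/-, so the siblings were not all wildtype. Both groups carried the GAL4 driver Tg(-6.7Tru.Hcrtr2:GAL4-VP16), which labels vestibular neurons through Tg(UAS:E1b-Kaede), together with the motor neuron reporter Tg(isl1:GFP). Both were raised on a background that the study writes as *mifta*-/-, which lacks pigment, the *phox2a* alleles were made by CRISPR/Cas9 in several founders, and genotype was assigned by the loss of GFP in the nIII/nIV motor nuclei. Neurons of many larvae were pooled for each library at 72 to 74 hpf. The sort took green cells and did not separate Kaede from GFP, so other hindbrain neurons were included.

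Each of 4 experimental repeats gave 1 null and 1 sibling library, and repeats A to C were compared, lettered in the order of the run codes. With 1 pool per genotype and repeat, error values describe the spread between pools. Gene reads ranged from 9579375 to 16992689 in the null libraries and from 18657956 to 19968857 in the sibling libraries. The null library of repeat C (null C) stood apart, with reads on 11087 genes, against 16675 to 18409 in the other 5 libraries, and with 62.4% of its reads not aligned. The mutated gene, *phox2a*, had 1125, 2811 and 1015 reads in null A, B and C, against 9355, 9465 and 4151 in the sibling libraries (edgeR log2 fold change -1.22 ± 0.62 SE). After the scaling described next, its level in null C was not lower than in siblings C, at 206 against 201 normalized CPM, while by gene reads alone it was 106 against 222 CPM. All 10 neuron markers had reads, and their summed level after this scaling was 21567 to 30457 counts-per-million (CPM) in null larvae, against 14774 to 21214 in siblings. The highest sum, 30457, was that of null C. The scaling raised the sum in null C (TMM factor 0.518) and lowered those of all sibling libraries (1.16 in siblings A). The order of null C and the sibling libraries therefore depends on it. Levels are given throughout as CPM of gene reads scaled by the TMM method, called normalized CPM. The limit that a count of 0 allows, 3 reads, was 0.130 to 0.181 normalized CPM in 5 libraries and 0.610 in null C (counting error only). In these bulk libraries, fewer cells that express a gene and less RNA per cell cannot be told apart.

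The 2 genotypes were compared gene by gene to ask which ligands, receptors and Smads differed when *phox2a* was lost. *bmp4* had no reads in any null library and was read in all 3 sibling libraries of repeats A to C. The proteinase genes *bmp1a* and *bmp1b* and the receptor gene *tgfbr1a* were also lower in every null library than in every sibling library, at low counts. All of these genes passed the filter through the sibling libraries, where they were high. Their contrasts are therefore described and not read as tests. Most receptors and Smads had overlapping values, and many were low or at 0 in null C alone. After adjustment over all genes tested, edgeR's quasi-likelihood test called no gene of any kind.

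Genes were called where the Benjamini-Hochberg adjusted p was under 0.05 and the log2 fold change was beyond 2 in either direction. By edgeR, 0 of the 39 members were called, as were 0 of 14824 genes (0%). Of the 39 members, 2 (5.13%) had an unadjusted p under 0.05, *bmp4* and *bmp1a*, beside 3.22% of all genes tested. Both had few or no reads in null larvae and passed the filter through the sibling libraries where they were high. Nothing is therefore read from this share. DESeq2 called 1 member, *bmp4*, of the 46 with an adjusted p, beside 0.853% of all genes.

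The members leaned to lower values in null larvae. Of the 39 tested, 30 (76.9%) had a negative log2 fold change, against 55.9% of all genes, and their median was -0.74 on the log2 scale, against -0.15 for all genes. Without null C, 27 of the same 39 (69.2%) were negative, against 52.5% of all genes, and the median was -0.28, beside -0.03 over all genes kept in that fit. Of these 39, however, 17 had 0 reads in null C and needed sibling libraries to pass the filter. With the filter applied again without null C, 28 of 48 members (58.3%) were negative, against 51.7% of all genes. Their median was then -0.20. With library size alone in place of TMM, the median of all genes moved to -0.36 and that of the members to -0.87. Groups did not overlap for 5 members, all lower in null larvae, which was 12.8% of the 39 beside 7.52% of all genes tested. Of the 5, *bmp4*, *bmp1a*, *bmp1b* and *tgfbr1a* had few or no reads in null A and null C and passed the filter through the sibling libraries. *tgfbrap1*, at 0 in null C, also met it there. Nothing is therefore read from this share. No member was higher without overlap, beside 3.09% of all genes.

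**Figure D1:**
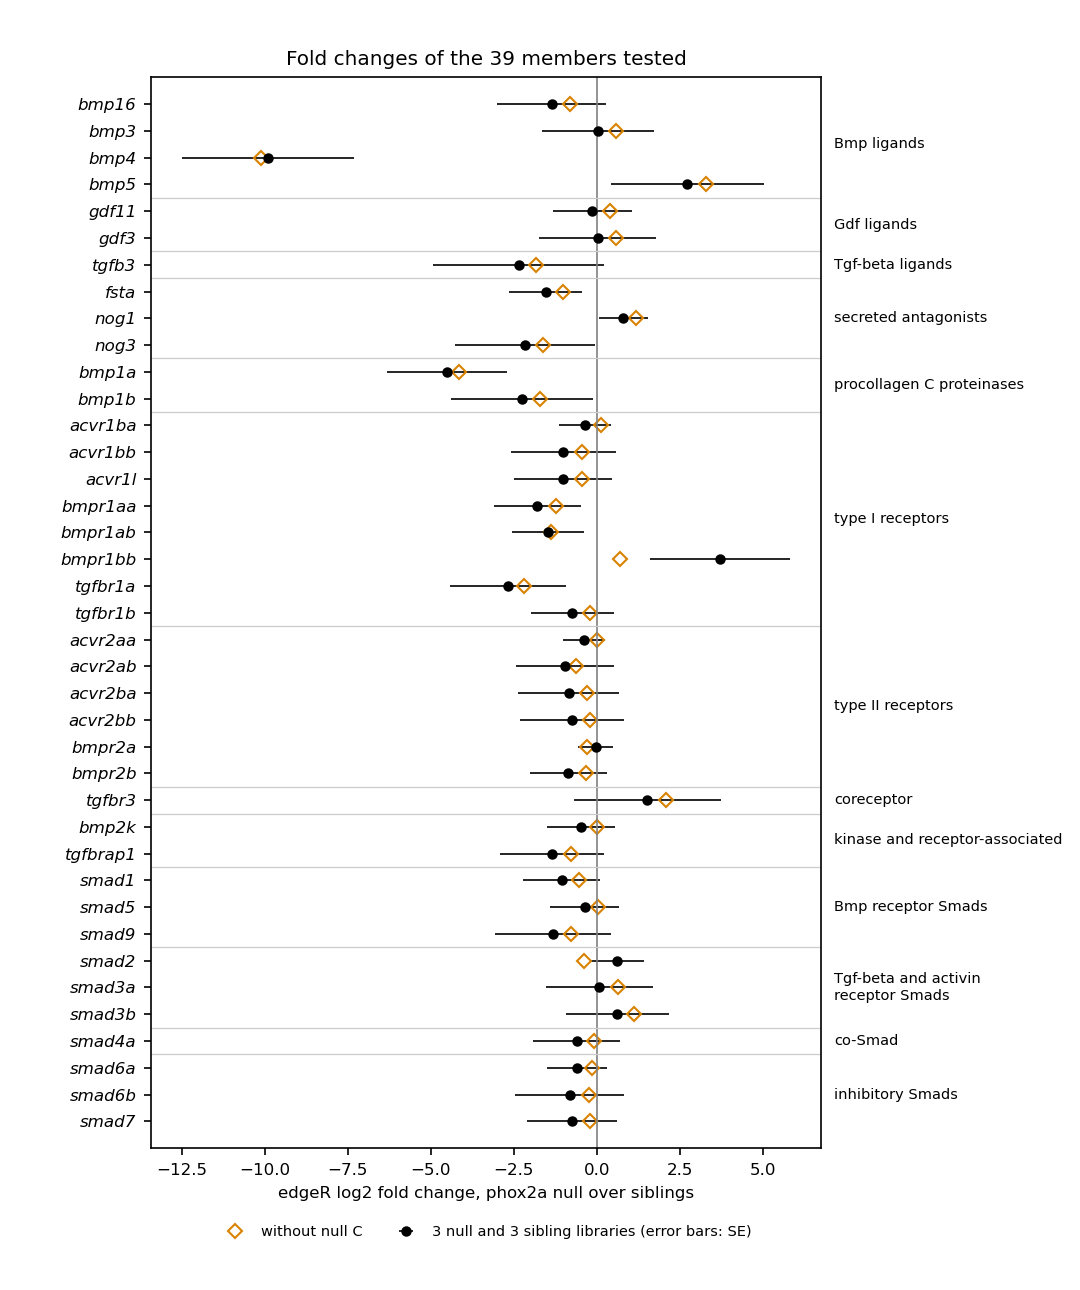
edgeR log2 fold changes, *phox2a* null over siblings, of the 39 members tested (x axis), by gene and role (y axis). Black points use 3 libraries per genotype with SE bars, and open diamonds leave out null C. *bmp4* lies at -9.90 and *bmp1a* at -4.50, 30 of 39 points are left of 0, and the diamond of *bmpr1bb* is at 0.71 while its point is at 3.72.

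*bmp4* encodes a ligand that in many vertebrate tissues signals through Smad1, Smad5 and Smad9. It had 0, 0 and 0 reads in the null libraries of repeats A, B and C, against 37, 108 and 284 reads in the sibling libraries. In normalized CPM the sibling levels were 1.60, 4.67 and 13.7. The groups did not overlap, and the sibling libraries themselves differed widely. With each null library at 3 reads, the mean level in null larvae was at least 21.1-fold lower, allowing for counting error alone. The spread between libraries is not covered, and *acvr1l*, for one, had 1960 reads in null A and 0 in null C. This bound was 39.2-fold without null C, where 3 reads weigh most, and 9.91-fold without siblings C. edgeR gave an unadjusted p of 0.0083 (adjusted p = 1.00), and its fitted log2 fold change of -9.90 ± 2.60 SE depends on the prior count and is no bound. With the replicate block the unadjusted edgeR p was 0.036 (adjusted p = 1.00). It also stayed under 0.05 with each library left out in turn, at adjusted edgeR p-values of 0.565 to 1.00. DESeq2 gave an adjusted p of 0.0029, and of 0.017 with the replicate block. All of these fits kept a null group without reads, in a gene read in the sibling libraries alone. Their p-values are therefore not read as separate support. In repeat D, which was left out of the comparison, *bmp4* had 0 reads in both genotypes, among 15865368 gene reads on 6211 genes in the sibling library. *nog1* and *tgfbrap1* were also at 0 in that library.

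Other Bmp ligands were sparse and did not move together. Of the 13 Bmp ligand genes, 11 had a read and 4 were tested, 2 with a positive and 2 with a negative log2 fold change. Null C had 0 reads on all 13 genes. *bmp5* had 266, 299 and 0 reads in null larvae, against 18, 94 and 0 in siblings. Its log2 fold change was opposite in sign to that of *bmp4* (2.73 ± 2.30 SE, edgeR unadjusted p = 0.27), and its groups overlapped through null C and siblings C, both at 0. *bmp16* had 213, 91 and 0 reads in null larvae, against 570, 107 and 288 in siblings. *bmp3* was nearly level outside null C, at 30, 27 and 0 reads in null larvae, against 28, 19 and 24 in siblings. The close relatives of *bmp4*, *bmp2a* and *bmp2b*, were read in a few libraries. *bmp2a* had 0, 15 and 0 reads in null larvae and none in siblings. *bmp2b* had none in null larvae and 1, 0 and 57 reads in siblings. The summed level of the Bmp ligands was 30.8, 38.6 and 0 normalized CPM in null larvae, against 17.1 to 33.6 in siblings, and these ranges overlapped.

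**Figure D2:**
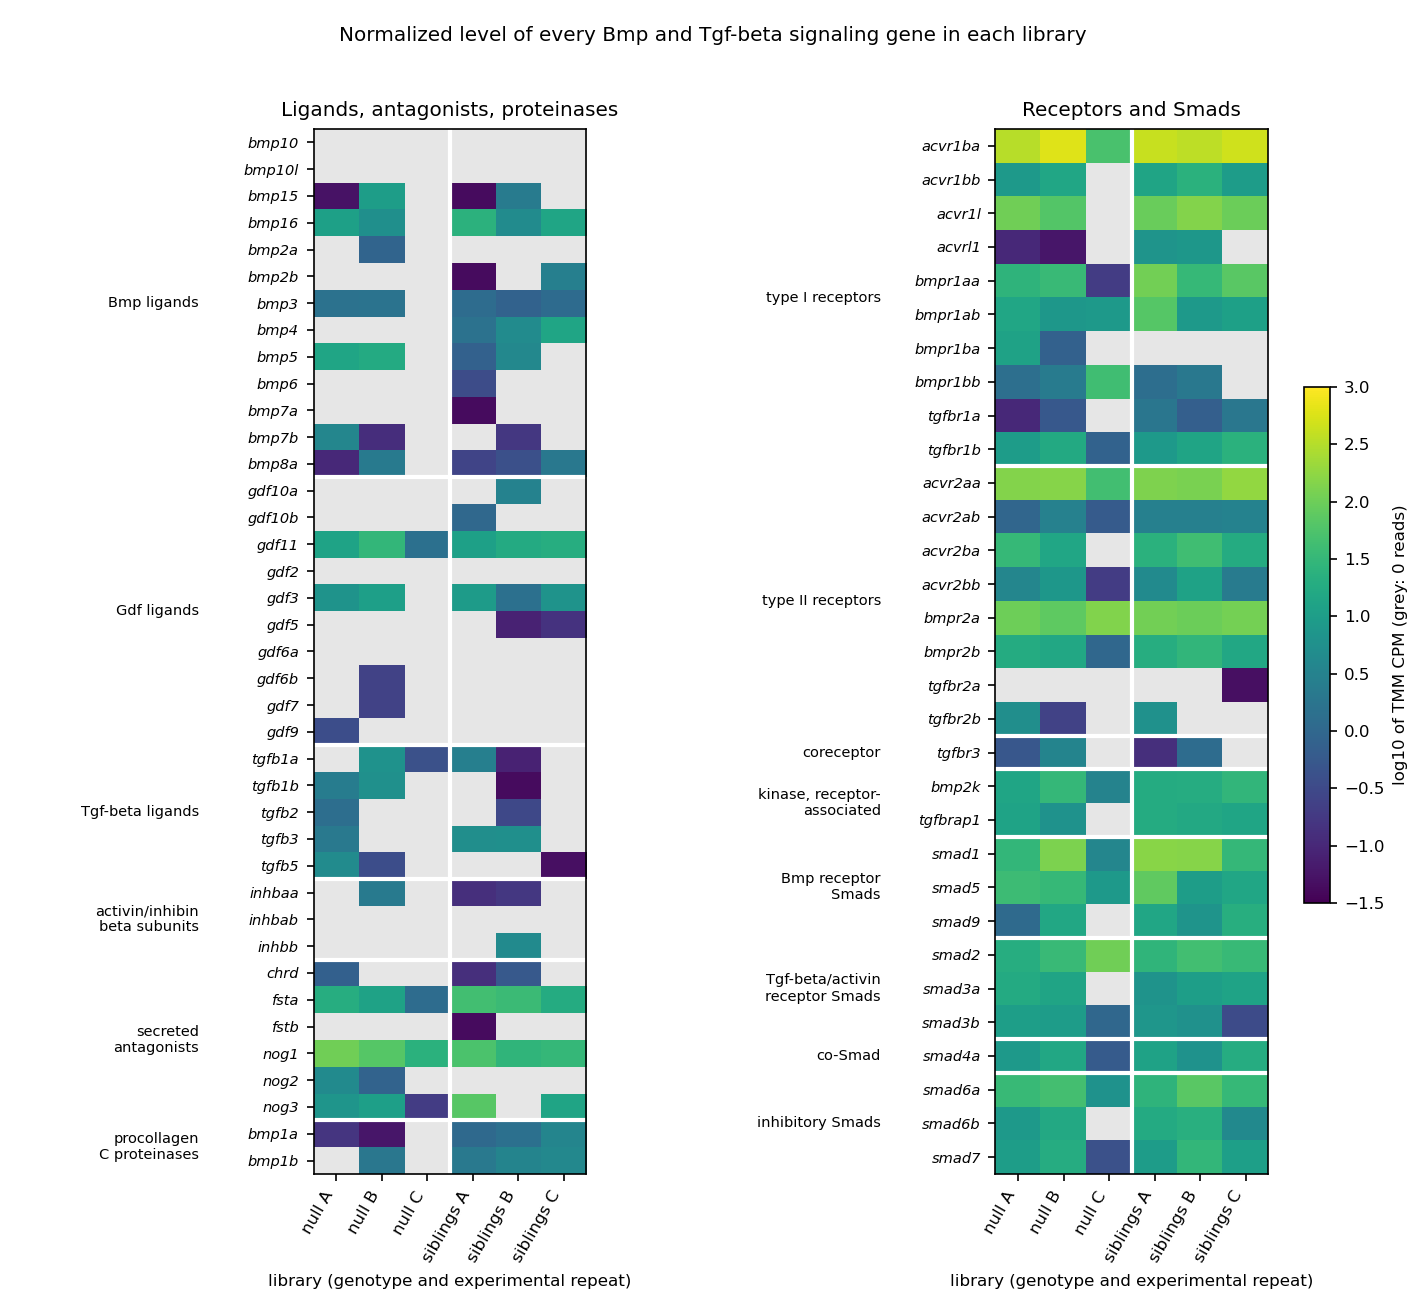
Level of all 70 members in each library as log10 of normalized CPM (color), with genes by role on the y axis and null A to C left of siblings A to C on the x axis. Grey is 0 reads. *bmp4* is grey in all 3 null columns, and null C is grey for 13 of the 33 members that were read in the other 5 libraries.

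Gdf, Tgf-beta and activin ligands gave few values that could be tested. *gdf11*, which limits neuron production in mouse epithelia and patterns the trunk axis, had 13.0, 30.4 and 1.42 normalized CPM in null larvae, against 11.3, 17.7 and 20.0 in siblings. These ranges overlapped (log2 fold change -0.13 ± 1.17 SE). *gdf3*, the zebrafish Vg1 that pairs with Nodal in the early embryo, had 123, 183 and 0 reads in null larvae, against 217, 34 and 133 in siblings. *tgfb3* had 39, 0 and 0 reads in null larvae, against 124, 128 and 0 in siblings. *tgfb1b* had 46, 94 and 0 reads in null larvae, against 0, 1 and 0 in siblings, and did not pass the filter for the test over 6 libraries. Several ligands were read in 1 library alone. *gdf10a* had 73 reads and *inhbb*, a beta subunit of activins and inhibins, had 102 reads, both in siblings B. *gdf10b* had 24 reads in siblings A. No reads in the 6 libraries were counted on *gdf2*, *gdf6a*, *bmp10*, *bmp10l* or *inhbab*.

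Ligands as a class were read less often than the machinery that receives them. Of 31 ligand genes, 5 had reads in at least 5 of the 6 libraries and 17 had reads in at most 2. Of 19 receptor and coreceptor genes, 14 had reads in at least 5 libraries, and all 10 Smads did. Counts were not scaled by transcript length, so no level is compared between genes here.

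*bmp1a* and *bmp1b* encode secreted metalloproteinases of the astacin family, which process procollagens and cleave the Bmp antagonist chordin. *bmp1a* had 3, 1 and 0 reads in null larvae, against 25, 34 and 73 in siblings. Its level averaged 0.073 ± 0.081 normalized CPM in null larvae and 2.03 ± 1.32 in siblings (SD, n = 3 libraries each), and every null library lay below every sibling library. The log2 fold change was -4.50 ± 1.81 SE (edgeR unadjusted p = 0.037, adjusted p = 1.00). The unadjusted p was above 0.05 with any 1 library left out (0.071 to 0.14) and with the replicate block (0.13), all by edgeR. *bmp1b* had 0, 32 and 0 reads in null larvae, against 48, 79 and 82 in siblings. It too did not overlap, at a log2 fold change of -2.25 ± 2.15 SE, and null B carried all of its null reads. Cartilage and connective tissue, where such proteinases are known to act, was checked beside them. Of its 12 markers 10 had reads, *twist1a* and *prrx1a* were at 0 in all 6 libraries, and the sum was 41.9 to 121 normalized CPM in null larvae, against 15.5 to 48.9 in siblings. *col1a2* made up 115 of the 121 in null C, while *col1a1a* had 0.478, 0 and 0 normalized CPM in null larvae, against 0, 33.2 and 0.048 in siblings. The part of such cells in the proteinase values was not tested.

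Secreted antagonists bind ligands outside the cell. Noggin blocks Bmps, and follistatin blocks activins. *nog1* had 106, 66.3 and 24.0 normalized CPM in null larvae, against 52.7, 27.8 and 31.7 in siblings. Null A and null B were above every sibling library and null C below all of them (log2 fold change 0.81 ± 0.75 SE, edgeR unadjusted p = 0.31). Without null C it was 1.19 ± 0.41 SE, with an edgeR unadjusted p of 0.023 (adjusted p = 1.00). *nog2* was read in null larvae alone, at 86, 14 and 0 reads. *nog3* had 133, 183 and 1 reads in null larvae, against 1590, 0 and 282 in siblings, and siblings A held most of its level. *fsta* had 20.2, 12.5 and 1.22 normalized CPM in null larvae, against 44.1, 36.6 and 18.3 in siblings. The ranges of *fsta* overlapped only between null A and siblings C (log2 fold change -1.54 ± 1.11 SE). *chrd* had 14 reads in null A, 3 in siblings A and 13 in siblings B.

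Roof plate and rhombic lip genes mark the dorsal hindbrain that makes Bmps. Their summed level was 617, 730 and 1993 normalized CPM in null larvae, against 227, 226 and 680 in siblings. Most of it was *zic1*, a gene of dorsal neural tissue more widely, with 515, 655 and 1993 normalized CPM in null larvae, against 177, 215 and 526 in siblings. In null C, *zic1* was the whole of the sum. *lmx1bb* had 84.7, 59.9 and 0 normalized CPM in null larvae, against 44.3, 9.56 and 154 in siblings. Of 10 genes listed, 9 had a row and 8 had reads, and the roof plate Bmp gene *gdf6a* was at 0 in all 6 libraries. *wnt3a* had 6 reads in siblings A and none elsewhere. *zic2a* (131, 202 and 0 reads) and *atoh1a* (78, 0 and 0) were read in null larvae alone. *wnt1* had 43, 50 and 0 reads in null larvae, against 22, 21 and 0 in siblings. Of the 3 genes tested, *zic1* and *wnt1* had a positive and *lmx1bb* a negative log2 fold change (-0.52 ± 1.65 SE). In null C, *zic1* was at its highest level of the 6 libraries and *nog1* at its lowest. The part of such cells in the *nog1* values was not tested.

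**Figure D3:**
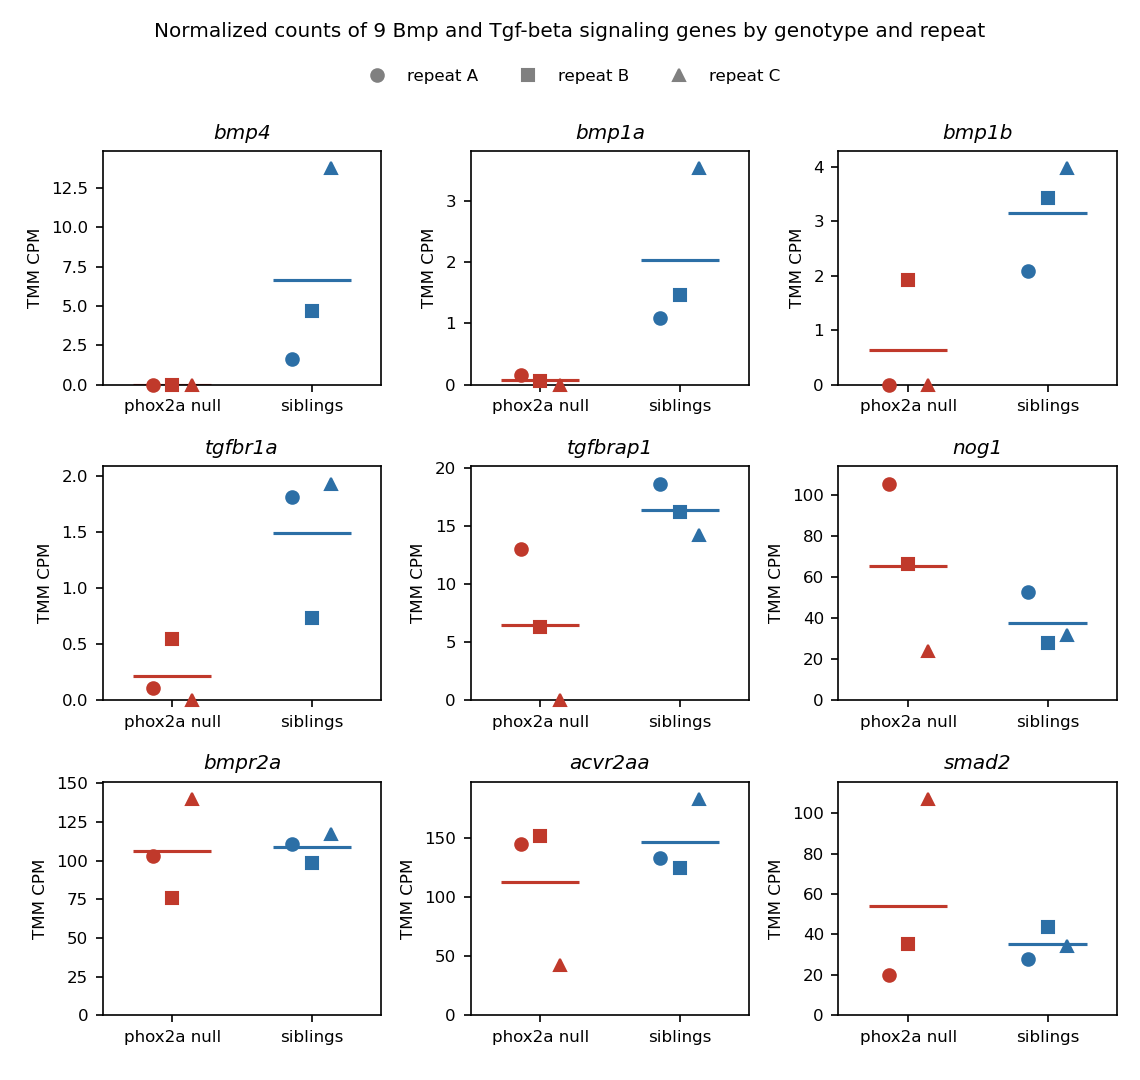
Normalized CPM (y axes from 0) of 9 members in *phox2a* null (red, left) and sibling (blue, right) libraries. Symbols give the repeat and lines the mean of 3 libraries. *bmp4* is at 0 in all null libraries, *tgfbrap1* ranges from 0 to 13.0 in null larvae and from 14.2 to 18.7 in siblings, and *smad2* in null C (107) lies above the other 5 libraries.

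Type I receptors carry the kinase that phosphorylates Smads. Of 10 such genes, 8 were tested and 7 of these were lower in null larvae, none past an unadjusted p of 0.05 by edgeR. Without null C, 6 of the 8 were lower, and their median log2 fold change moved from -1.01 to -0.44. *acvr1ba*, a receptor for activins and Nodals, had 326, 592 and 50.8 normalized CPM in null larvae, against 420, 352 and 465 in siblings. Null B was the highest library and null C the lowest, and the log2 fold change changed sign without null C (-0.35 ± 0.78 SE with it, 0.14 without). *acvr1l*, the Bmp receptor Alk8 of zebrafish, had 104, 61.4 and 0 normalized CPM in null larvae, against 92.3, 147 and 96.9 in siblings. Its 0 in null C stood for 0 reads of a gene that was read 1960 times in null A. *bmpr1aa* had 26.4, 35.3 and 0.203 normalized CPM in null larvae, against 109, 33.1 and 71.7 in siblings. Null B overlapped siblings B in this gene (log2 fold change -1.79 ± 1.31 SE, -1.22 without null C). *tgfbr1a*, a receptor for Tgf-betas, had 2, 9 and 0 reads in null larvae, against 42, 17 and 40 in siblings. These groups did not overlap (log2 fold change -2.67 ± 1.74 SE, edgeR unadjusted p = 0.16). Its copy *tgfbr1b* had 180, 284 and 4 reads in null larvae, against 200, 309 and 490 in siblings. The log2 fold change of *tgfbr1b* was -0.73 ± 1.25 SE, and -0.21 without null C.

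The *bmpr1b* copies were read unevenly between libraries. *bmpr1ba* had 230, 13 and 0 reads in null larvae and none in any sibling library, and it did not pass the filter for the test over 6 libraries. *bmpr1bb* had 26, 39 and 203 reads in null larvae, against 31, 47 and 0 in siblings, and 85.3% of its summed level over the 6 libraries lay in null C. Its log2 fold change was 3.72 ± 2.11 SE with null C and 0.71 without. *acvrl1*, the endothelial receptor known as Alk1 in mammals, had 2, 1 and 0 reads in null larvae, against 157, 175 and 0 in siblings. Like *bmpr1ba*, it was not tested over the 6 libraries. The 8 markers of vascular endothelium and heart summed to 0.478 to 4.52 normalized CPM in null larvae, against 0.130 to 2.43 in siblings. Of these, *kdrl* had 46 reads in siblings A and none elsewhere, and *fli1a* and *tie1* were at 0 in all sibling libraries. The part of such cells in the *acvrl1* values was not tested.

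Type II receptors bind ligand and activate the type I receptor. Of 8 genes, 6 were tested, and all 6 had a negative log2 fold change, from -0.96 in *acvr2ab* to -0.03 in *bmpr2a*, beside 55.9% of all genes. Without null C, 5 of the 6 were negative, and their median moved from -0.79 to -0.29. *bmpr2a*, a receptor for Bmps, was among the steadiest members, with 103, 75.9 and 140 normalized CPM in null larvae, against 110, 98.3 and 117 in siblings. Its mean was 106 ± 32.1 in null larvae and 108 ± 9.40 in siblings (SD, n = 3 each), and its sign depended on the scaling, being positive with RLE size factors (0.16) and DESeq2 (0.15). *acvr2aa*, a receptor shared by activins and Bmps, had 145, 152 and 42.9 normalized CPM in null larvae, against 133, 125 and 183 in siblings. Without null C its log2 fold change was 0.0002. *tgfbr2b* had 100, 4 and 0 reads in null larvae, against 137, 0 and 0 in siblings, and *tgfbr2a* had 1 read in all. *tgfbr3*, the coreceptor betaglycan, had 10, 57 and 0 reads in null larvae, against 3, 29 and 0 in siblings.

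*tgfbrap1* encodes a protein that binds Tgf-beta receptors and works in endosome tethering. It had 245, 104 and 0 reads in null larvae, against 431, 375 and 294 in siblings. In normalized CPM the null libraries were at 13.0, 6.27 and 0, against 18.7, 16.2 and 14.2 in siblings, without overlap. The log2 fold change was -1.34 ± 1.56 SE (edgeR unadjusted p = 0.42), and -0.77 without null C. *bmp2k*, a kinase of the endocytic pathway, had 14.2, 30.8 and 3.25 normalized CPM in null larvae, against 18.8, 19.6 and 28.8 in siblings, which overlapped.

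Many zebrafish receptors and Smads exist as duplicated copies, and the division of reads between them was compared among libraries. *acvr2aa* took 97.7% to 99.3% of the reads of its pair in all 6 libraries, and *acvr1ba* took 93.8% to 100% of those of its pair. The lesser copies were read at 18, 49 and 3 reads for *acvr2ab* in null larvae, against 66, 67 and 65 in siblings. *acvr1bb* had 157, 243 and 0 reads in null larvae, against 306, 538 and 204 in siblings. *bmpr2a* took 84.5%, 82.7% and 99.3% of its pair in null larvae, against 84.7%, 76.9% and 88.3% in siblings. These pairs kept 1 copy ahead in both genotypes. *tgfbr1a* took at most 3.07% of its pair in null A and null B, against 17.4%, 5.21% and 7.55% in siblings. *bmp1a* took 3.03% of its pair in null B (1 of 33 reads), against 34.2%, 30.1% and 47.1% in siblings. In null C, *bmpr1aa* took 2.27% of its pair, against 62.4% to 86.3% in the sibling libraries and 64.3% and 82.2% in null A and null B. That value was 1 of 44 reads, so no switch between the copies is read from it. In siblings A, *bmpr1ab* stood high, at 66.0 normalized CPM, against 8.65 and 11.4 in siblings B and C and 14.7, 7.65 and 8.74 in the null libraries. Reads were not scaled by length and near-identical stretches may share reads, so these shares compare libraries, not copies.

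**Figure D4:**
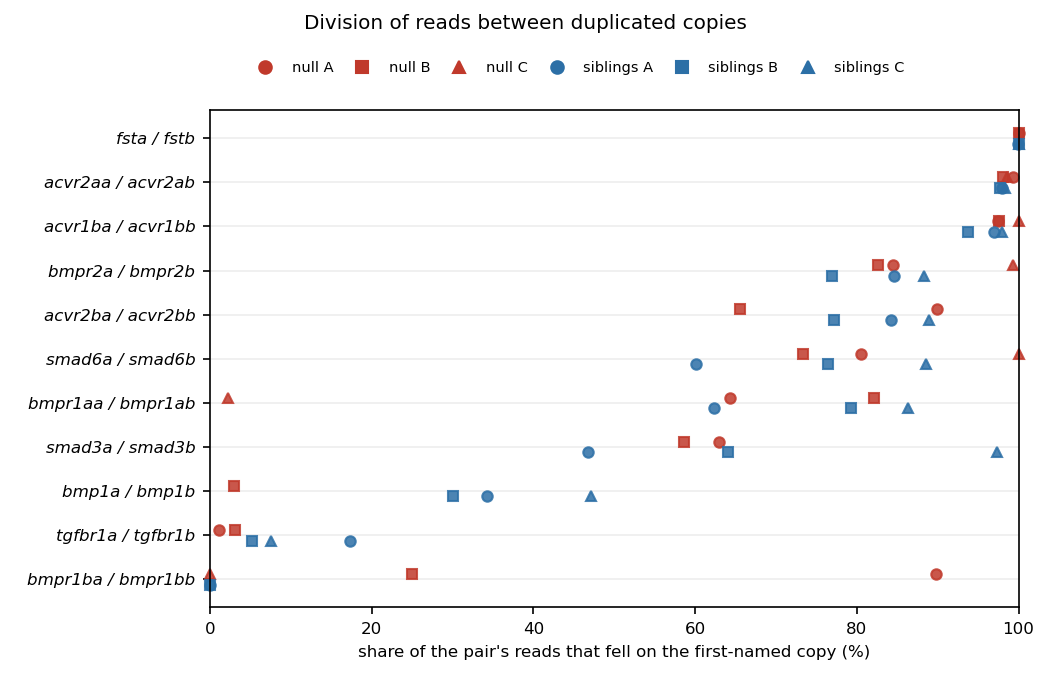
Percentage of a pair's reads on its first-named copy (x axis) for duplicated pairs with at least 10 reads in 4 or more libraries (y axis). Red symbols are *phox2a* null and blue symbols sibling libraries, shaped by repeat. *acvr2aa* holds 97.7% to 99.3% in every library, and *bmpr1aa* is at 2.27% in null C, which is 1 of 44 reads.

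Bmp receptor Smads were all lower in mean in null larvae, with wide overlap. *smad1* had 29.9, 131 and 3.66 normalized CPM in null larvae, against 157, 154 and 31.9 in siblings. It was lower in the null library of each repeat, although the groups overlapped (log2 fold change -1.06 ± 1.16 SE, edgeR unadjusted p = 0.39). With the replicate block it was -1.94 ± 0.93 SE (edgeR unadjusted p = 0.073, adjusted p = 1.00). *smad5* had 38.1, 33.1 and 8.53 normalized CPM in null larvae, against 78.1, 9.95 and 14.7 in siblings. Its sign rested on siblings A, since the log2 fold change was -0.36 ± 1.05 SE with that library and 1.09 without it. *smad9* had 21, 262 and 0 reads in null larvae, against 342, 154 and 436 in siblings.

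All 3 Smads of the Tgf-beta and activin branch had a positive log2 fold change, and none of the 10 Smads had an unadjusted p under 0.05 by edgeR. *smad2* had 19.7, 35.2 and 107 normalized CPM in null larvae, against 27.6, 43.5 and 34.4 in siblings. The positive log2 fold change (0.62 ± 0.81 SE) came from null C, and was -0.37 without that library and -0.09 without a scaling factor. *smad3a* had 337, 224 and 0 reads in null larvae, against 150, 246 and 262 in siblings. *smad3b* had 198, 158 and 5 reads in null larvae, against 171, 138 and 7 in siblings. *smad4a*, the partner shared by both branches, had 8.56, 16.0 and 0.610 normalized CPM in null larvae, against 12.5, 6.32 and 19.4 in siblings. These ranges overlapped.

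Inhibitory Smads compete with receptor Smads and are themselves induced by the pathway in many cells. *smad6a* had 34.4, 45.7 and 6.30 normalized CPM in null larvae, against 27.1, 70.3 and 33.0 in siblings. *smad6b* had 157, 276 and 0 reads in null larvae, against 416, 501 and 88 in siblings. *smad7* had 9.94, 19.7 and 0.406 normalized CPM in null larvae, against 9.57, 29.8 and 11.2 in siblings. All 3 had a negative log2 fold change, with a median of -0.74, and of -0.20 without null C.

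Null C lacked many members that the other libraries held. Of 33 members that had reads in each of the other 5 libraries, null C had 0 reads on 13 (39.4%), against 29.7% of 12671 genes with reads in the other 5. These 13 included *acvr1l*, *acvr1bb*, *acvr2ba*, *tgfbr1a*, *tgfbrap1*, *smad3a*, *smad6b* and *smad9*. Members kept in null C were not low throughout in normalized CPM, since *bmpr2a*, *smad2* and *bmpr1bb* had their highest level there. For *bmpr2a* this came from the scaling. By gene reads alone its level in null C was 71.8 CPM, against 83.1 to 129 in the other 5 libraries. Skin markers summed to 5289 normalized CPM in null C, against 4.58 and 79.4 in the other null libraries and 82.9 to 2936 in siblings. The scaling raised the sum in null C and lowered the 2936 of siblings A (TMM factors 0.518 and 1.16), so the order of these libraries depends on it. Of the 9, *cldni* and *tp63* had 0 reads in null C, and *epcam* was lower in null larvae without overlap, at 13.5, 0.362 and 5.69 normalized CPM, against 79.2, 44.8 and 160 in siblings. The part of skin cells in the null C values was not tested.

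Without null C, 16687 genes and 48 members passed the filter. Of the 48, 4 were higher in null larvae at an unadjusted edgeR p under 0.05 (1.73% of all genes were), and 1, *bmp4*, was lower (2.32% of all genes were). The 4 were *nog1*, *nog2*, *bmpr1ba* and *tgfb1b*. The last 3 had 0 or 1 read in sum in siblings and passed the filter through the null libraries where they were high. *bmp4* passed it through the sibling libraries alone, so nothing is read from the shares of these genes. Null A held 94.0% of the level of *bmpr1ba* over the 6 libraries. None had an adjusted p under 0.05.

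Pathway genes outside the symbol rule were compared from lists of 81 genes, of which 69 had a row and 38 were tested. Of the 38, 15 had a positive and 23 a negative log2 fold change, with a median of -0.19 (-0.15 for all genes). None passed the adjusted threshold, and 3 had an unadjusted edgeR p under 0.05, beside 3.22% of all genes. *gata3*, a target of Bmp signals in early ectoderm that is also expressed by a set of hindbrain neurons, had 3.72, 54.1 and 8.33 normalized CPM in null larvae, against 236, 207 and 103 in siblings. Its groups did not overlap (log2 fold change -3.04 ± 1.04 SE, -2.67 without null C). *gata2a*, its close relative, had 47, 11 and 0 reads in null larvae, against 351, 1257 and 66 in siblings. It did not overlap either (log2 fold change -4.47 ± 1.78 SE). *id2b*, of the Id family that Bmps induce in many cells, had 63.2, 30.7 and 503 normalized CPM in null larvae, against 14.6, 9.52 and 57.6 in siblings. Its log2 fold change of 2.87 ± 1.20 SE was 0.77 without null C, which held its highest value.

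The known targets taken as a list leaned lower, with 8 of 11 tested negative and a median of -1.25 on the log2 scale (-0.73 without null C). Of all genes, 55.9% were negative, with a median of -0.15 (-0.03 without null C). The list includes *gata2a* and *gata3*, and whether the output of the pathway differed was not tested. The Id genes did not share a direction. *id3* had 36, 0 and 0 reads in null larvae, against 97, 119 and 170 in siblings, without overlap. *id1* had 3.30, 2.35 and 0 normalized CPM in null larvae, against 2.77, 1.64 and 4.50 in siblings, which overlapped. Targets read in siblings only were *msx2b* (90 reads in siblings C), *msx3* (147 in siblings B) and *ccn2a* (123 in siblings A and 580 in siblings C).

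Intracellular partners gave 5 genes lower and 1 higher without overlap among 18 tested, beside 7.52% lower and 3.09% higher of all genes. The lower ones were the Smad co-repressor genes *skib*, *skila* and *skilb*, the Smad anchor gene *zfyve9a* and *ppm1aa*. *ppm1aa* and *ppm1ab* are copies of a phosphatase that in human cells acts on Smads, and they lay on opposite sides. *ppm1aa* had 72.5, 70.3 and 9.96 normalized CPM in null larvae, against 109, 80.9 and 116 in siblings. *ppm1ab* had 60.7, 68.5 and 89.2 normalized CPM in null larvae, against 30.8, 27.9 and 39.9 in siblings. After scaling, *ppm1ab* was higher in every null library (log2 fold change 1.15 ± 0.61 SE, edgeR unadjusted p = 0.10). In null C it had 439 of 9579375 gene reads, against 826 of 18657956 in siblings C. The scaling raised null C (TMM factor 0.518), so the size of its gap to siblings C depends on it. *skib* had 22.4, 13.1 and 0 normalized CPM in null larvae, against 23.0, 28.6 and 45.9 in siblings, and null A nearly met siblings A. The groups of *skila* were also close, at 28.98 normalized CPM in null A against 30.01 in siblings A. *skilb* had 24.99 in null A against 25.60 in siblings A, and *zfyve9a* had 24.71 in null B against 25.34 in siblings C. The count of 5 lower genes therefore rests largely on small gaps. Membrane partners and extracellular modulators had no gene without overlap. *bambib*, a pseudoreceptor, had 203 and 165 reads in siblings A and C and none elsewhere, *grem1b* had 22 reads in siblings A, and *runx3* had 38 in siblings C. *mstnb* had 136 reads in null B and *hjv* had 17 in null A, with none in siblings.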

How the data were processed

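The authors deposited counts, whole reads per gene and library, after alignment to GRCz11 per the labels; the aligner and counter are not given in the sources used here. Their table of normalized values was not used. Whether the counting used strand is not given in the sources used here, so overlapping genes and near-identical copies may share reads. 5 rows that name no gene (41.2% to 98.1% of a library's reads) stayed out of library sizes and tests. Columns were matched to genotype by name; run codes gave the repeats, and no column was left unmatched.

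The test was edgeR 4.0.16 in R 4.3.3, on the 3 null and 3 sibling libraries of repeats A to C (filterByExpr, TMM, quasi-likelihood test, Benjamini-Hochberg adjustment over 14824 genes). The SE is the log2 fold change divided by the square root of F. An exact permutation test of 3 against 3 libraries cannot go below 0.1 and was not run. Alternatives were DESeq2 1.42.0, RLE factors, library size alone, no filter, 10 reads in every library, the replicate block, the inclusion of repeat D, and fits without 1 library; repeats A and B alone were added after seeing the data. The repeat pairs the libraries by design, since each gave 1 pool of either genotype; deviations from the genotype means correlated at 0.027, 0.082 and 0.050 over 14824 genes in repeats A, B and C. The fits were also run on simulated counts drawn around a shared profile, with no library that had lost genes as null C had. That run therefore does not show how the fits behave with such a library.

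Values in every library are given for the 10 members with the highest mean normalized CPM, members at an unadjusted p under 0.05, members whose groups did not overlap, members with at least 10 reads in 1 genotype and none in the other, and their duplicated copies; other members were added to describe each role. No transcript lengths were used. The members, the pathway and marker lists and the tests were chosen with earlier results of these data known. Python 3.11.15 was used for tables and plots.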

Additional observations from a re-analysis of the deposited data

Results flagged for a closer look

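In groups of 4 libraries, repeat D included, 12 of 50 groups of named members held 1 library far from the other 3 on the log2(CPM + 0.5) scale. The nominal rate of about 1 in 20 groups is no yardstick here, because members were named from these same data. Several were named for having reads in 1 genotype only, which favors 1 high library. Of the 12, 6 were set by the low library of repeat D. In *bmpr2a*, null D had 0 CPM of gene reads, against 71.8 to 114 in the other null libraries. Siblings D had 46.8, against 118 to 129 in the other sibling libraries. In siblings D, *tgfbrap1*, *nog1* and *acvr2ab* were at 0 and *acvr2aa* was at 1.07 CPM, against 150 to 203 for *acvr2aa* in the other sibling libraries. The sibling library of repeat D had reads on 6211 genes and the null library on 2214. The other 6 groups each had 1 high library. These were *gdf10a* (3.80 CPM) and *inhbb* (5.32) in siblings B, *gdf10b* (1.20) in siblings A, *bmp2b* (3.06) in siblings C, and *bmp1b* (2.11) and *bmp2a* (0.990) in null B.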

How the results depend on the processing

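edgeR called 0 genes under each alternative except all 4 repeats (40 genes); DESeq2 called 129, and 289 with the replicate block. Members at an unadjusted p under 0.05 numbered 7 of 65 (10.8%) by DESeq2 with or without the replicate block, beside 6.69% and 5.15% of all genes, 1 by edgeR with the replicate block, 0 with 10 reads in every library and over all 4 repeats, 5 in repeats A and B (10.6%, beside 3.64% of all genes), and 1 to 5 with 1 library left out, where 5 was without null C. *bmpr1ba*, *tgfb1b*, *acvrl1*, *nog2* and *bmp4* were under 0.05 in both DESeq2 fits and in repeats A and B. Each had few or no reads in 1 genotype and entered these fits through the other genotype, so nothing is read from these shares. Members without overlap numbered 8 without a scaling factor, and 0 with 10 reads in every library or all 4 repeats. The filter of 10 reads in every library kept 10 members. It removed beforehand the 5 without overlap in the main fit, *bmp4* and *bmp1a* among them, which had 0 reads in null C. Neither count of 0 under that filter is therefore read as a result. The median of the members tested was negative under all 15 alternatives, from -1.31 (without null B) to -0.20 (without null C). The median of all genes moved as well, being -0.43 without null B and -0.03 without null C. It was -0.56 in edgeR with the replicate block, 0.03 by DESeq2 and 0.05 with 10 reads in every library.

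Among values of named members, 284 kept direction and side of the threshold, 3 gained and 10 lost the threshold, and 16 turned sign. The log2 fold change of *acvr1ba* ranged from -1.13 to 0.14 with 1 library left out and was 0.24 in repeats A and B, *acvr2aa* from -0.65 to 0.0002 (0.19 in repeats A and B), *smad2* from -0.37 to 0.94 (-0.39 in repeats A and B, -0.085 without a scaling factor), *smad5* from -0.80 to 1.09 (0.05 without null C, 0.066 by DESeq2 with the block), *bmpr2a* from -0.29 to 0.15 (0.15 by DESeq2, 0.16 with RLE, 0.056 by DESeq2 with the block) and *bmpr1ab* from -1.91 to 0.015. *tgfbr1b* was 0.26 in repeats A and B. The cause was not tested. The replicate block moved *bmp1a* above an unadjusted p of 0.05 (edgeR and DESeq2) and *tgfb5* likewise (DESeq2), and *bmp1b* and *smad9* below it (DESeq2).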
